A study of Sus scrofa with 6 samples.

Results

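Voltage-gated calcium channel genes were followed in the prefrontal cortex of pigs (Sus scrofa) exposed to valproic acid before birth. The group was set by name as 10 genes, 7 for pore-forming subunits and 3 for alpha2delta subunits, and 9 of them are among the 17201 genes listed in the files. CACNA1B, the N-type pore gene, is not analysed here. RNA was sequenced from 3 VPA animals (391, 392 and 393) and from 3 control animals (401, 402 and 408), labelled as given no treatment. The VPA animals were exposed through early gestational treatment with valproic acid, labelled 75 mg/kg. All 6 animals were 3 months old, and the sources used here give no breed, sex or litter. Valproic acid (VPA) is an anticonvulsant that also inhibits histone deacetylases. The study set out to build an autism model in pigs, and the comparison asks which cortical transcripts differ between VPA and control animals. The labels name separate animals, but animals that share a litter would not be independent. The p-values would then partly measure the spread between littermates. As treatment was given during gestation, littermates would share it, so a difference between litters cannot be told apart from VPA.

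Voltage-gated calcium channels open when the membrane depolarises and let calcium into the cell. The pore-forming alpha1 subunit sets the channel type. P/Q-type and N-type channels trigger transmitter release, with a smaller part played by R-type channels. L-type channels link depolarisation to transcription in cell bodies and dendrites, while T-type channels open at low voltage and shape burst firing. The alpha2delta subunits are extracellular proteins that raise the number of channels at the surface, and alpha2delta-1 and alpha2delta-2 bind the gabapentinoid drugs. Beta subunits bind the pore-forming subunit inside the cell.

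The estimated changes of the calcium channel genes between VPA and control cortex ran from -10.2% for CACNA2D1 to 5.04% for CACNA2D2. Their 95% intervals reached down to -22.0% (CACNA1C) and up to 17.98% (CACNA2D2). By edgeR's quasi-likelihood test with an adjusted p threshold of 0.05, 0 of the 9 genes were called, where 0.362% of the 14373 genes tested were (52 genes). DESeq2, which called 3.64% of the genes it adjusted, called 0 of the 9, as did limma-voom and limma on FPKM. At an unadjusted p under 0.05 there was 1 of 9, CACNA2D1, where 16.1% of all tested genes lay. Fold changes were negative in 7 of 9, and in 49.5% of all tested genes. Their median log2 fold change was -0.05, and that of all genes tested 0.0018. The gene farthest from no change was CACNA2D1 at -0.15 ± 0.047 (SE), and the highest was CACNA2D2 at 0.07 ± 0.076.

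The libraries held 16285517 to 17989032 counts each, so that a normalised count of 1 CPM (counts scaled to a common library total) stood for 16.3 to 17.99 counts. Each of the 9 genes had at least 365 counts in every library, and all 9 passed the filter on low counts. VPA 393 stood apart in 8 markers of striatal projection neurons (PPP1R1B and PENK the most abundant), which sum to 537 CPM there, to 160.5 and 177 CPM in the other VPA libraries and to 124 to 140.03 CPM in controls. All 8 had positive fold changes, where 49.5% of all tested genes had negative ones. Of the 8, 7 were higher at an unadjusted p under 0.05 (edgeR), as were 8.69% of all tested genes. In 6 all VPA libraries were above all controls, as in 12.1% of all tested genes. The 8 glutamatergic neuron markers (CAMK2A and NRGN the most abundant) summed to 5506 to 5724 CPM in VPA and 5805 to 5958 CPM in controls, with 5 of 8 at an unadjusted p under 0.05, all lower, as were 7.45% of all tested genes. The 8 oligodendrocyte markers, led by MBP, summed to 15676 to 17787 CPM in VPA and 12082 to 16315 CPM in controls, with 7 of 8 under 0.05, all higher, as were 8.69% of all tested genes. The 8 interneuron markers (GAD1, SST) summed to 778 to 813 CPM in VPA and 726 to 761 CPM in controls. The sum was 724 to 821 CPM in VPA and 602 to 700.2 CPM in controls for 6 oligodendrocyte precursor markers (PTPRZ1, PDGFRA). It was 8170 to 9481 CPM in VPA and 7525 to 8214 CPM in controls for 6 astrocyte markers (SLC1A2, GFAP). For 6 microglial markers (CSF1R, P2RY12) it was 311 to 323 CPM in VPA and 255 to 313 CPM in controls. For 6 endothelial and mural markers (VWF, RGS5) it was 352 to 455 CPM in VPA and 351 to 381 CPM in controls. For 4 choroid plexus and ependymal markers (FOXJ1, KCNJ13) it was 14.4 to 26.6 CPM in VPA and 10.02 to 13.0 CPM in controls. Of its members, TTR was called higher (log2 fold change 2.55, adjusted p = 0.041), while CLIC6 stood at -1.94 (adjusted p = 0.29). No marker of these lists was at 0 in all libraries. Neuronal and glial markers were thus present in every library, as the brain label implies. In bulk tissue, fewer cells of a type and less RNA per cell cannot be told apart.

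Levels between genes were compared as FPKM, which divides by gene length. CACNA2D1 was the highest of the 9 at 29.9 FPKM on average (27.8 to 32.5 over the 6 libraries), above 84.0% of all tested genes. CACNA1E followed at 15.6 FPKM and CACNA1A at 12.5 FPKM, and none of these ranges overlapped. CACNA2D3 (6.85 FPKM) and CACNA1H (5.68 FPKM) had overlapping ranges, as had CACNA2D2 (4.74 FPKM) and CACNA1G (4.72 FPKM). The L-type genes were lowest, CACNA1C at 3.44 FPKM and CACNA1D at 2.25 FPKM, with separate ranges. Among the 6 measured pore genes of the named group, R-type and P/Q-type transcripts made up most of the summed FPKM. CACNA1E held 33.5% to 35.5% in VPA and 35.1% to 36.5% in controls. CACNA1A held 27.9% to 29.3% in VPA and 27.6% to 28.5% in controls. The sum leaves out CACNA1B and the T-type gene CACNA1I, which stood above CACNA1G and CACNA1H. These shares therefore do not rank the channel types over all pore genes.

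**Figure D1:**
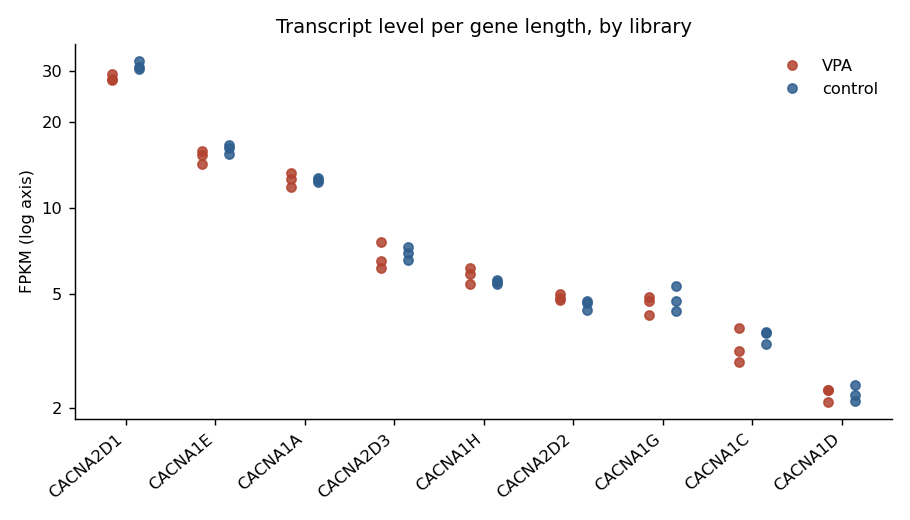
Transcript level per gene length (FPKM, log axis) of the 9 calcium channel genes, ordered by their mean over all libraries, with 1 point per library for VPA (red) and control (blue). CACNA2D1 stands highest at 27.8 to 32.5 FPKM and CACNA1D lowest, and within each gene the 2 groups lie close together.

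CACNA1A encodes the P/Q-type pore, the main calcium source for fast transmitter release at many central synapses. It had 117, 110.2 and 123 CPM in VPA 391, 392 and 393, against 114, 117 and 118 CPM in control 401, 402 and 408. The VPA libraries spanned the whole control range on both sides. The means were 117 ± 6.47 CPM in VPA and 116 ± 1.97 CPM in controls (SD, n = 3 each), and the estimated change was -0.416% with a 95% interval of -8.23% to 8.06% (adjusted p = 0.97).

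CACNA1E encodes the R-type pore. Its level was 183, 171 and 189 CPM in VPA 391, 392 and 393, against 195, 185 and 199 CPM in control 401, 402 and 408. VPA 391 and VPA 392 lay below every control, while VPA 393 lay above control 402, so the groups overlapped. The means were 181 ± 9.16 CPM in VPA and 193 ± 6.86 CPM in controls (log2 fold change -0.10 ± 0.052 SE, adjusted p = 0.35), with an interval of -14.03% to 0.754%.

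CACNA1C and CACNA1D encode the L-type pores of neurons. CACNA1C had 21.8, 23.7 and 28.6 CPM in VPA 391, 392 and 393, against 27.7, 27.5 and 25.3 CPM in control 401, 402 and 408. VPA 393 was the highest of all 6 libraries and the other VPA libraries were the lowest. The coefficient of variation among VPA animals was 14.2%, where counting alone gives 4.87%, and it was 5.13% among controls, where counting gives 4.62%. Its log2 fold change was -0.13 ± 0.10 (adjusted p = 0.58) with an interval of -22.0% to 6.95%. Without VPA 393 it was -0.24, with an adjusted p of 0.25 (0.25 to 0.97 over 19 alternatives), and without VPA 391 it was -0.06.

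CACNA1D had 22.8, 25.2 and 25.1 CPM in VPA 391, 392 and 393, against 24.1, 23.1 and 26.1 CPM in control 401, 402 and 408. The groups interleaved. The mean was 24.4 CPM in both groups, with an SD of 1.35 CPM in VPA and 1.54 CPM in controls, close to counting error. The interval of the change ran from -13.2% to 12.8% (adjusted p = 0.95).

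CACNA1G and CACNA1H encode T-type pores. CACNA1G had 55.8, 62.4 and 64.7 CPM in VPA 391, 392 and 393, against 57.7, 62.6 and 70.6 CPM in control 401, 402 and 408. The controls alone spanned most of the range, and the groups overlapped (log2 fold change -0.07 ± 0.086, adjusted p = 0.73, interval -16.7% to 8.34%). CACNA1H had 47.2, 49.5 and 43.4 CPM in VPA 391, 392 and 393, against 45.1, 43.7 and 44.3 CPM in control 401, 402 and 408. VPA 391 and VPA 392 lay above every control and VPA 393 below every control (log2 fold change 0.06 ± 0.074, adjusted p = 0.74, interval -6.87% to 16.9%). CACNA1I, the third T-type pore gene and not in the named group, had 9.15 ± 0.661 FPKM in VPA and 9.70 ± 0.903 FPKM in controls, higher than CACNA1G and CACNA1H in every library (log2 fold change -0.10 ± 0.079, adjusted p = 0.59).

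**Figure D2:**
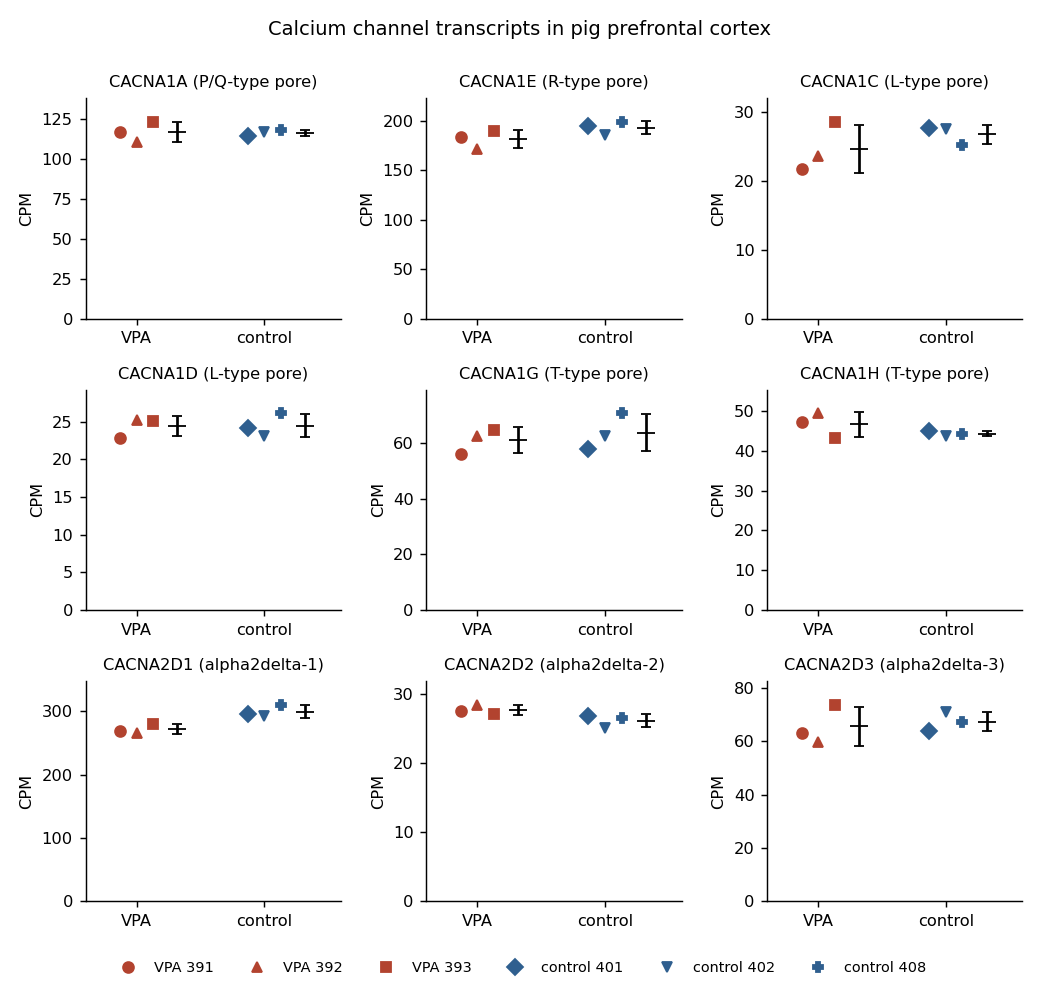
CPM of each of the 9 genes (axes start at 0), with 1 marker per library, VPA left of control, and the mean with its SD beside each group. Only CACNA2D1 (VPA lower, 266 to 280.3 against 292 to 310.4 CPM) and CACNA2D2 (VPA higher, 27.0 to 28.4 against 25.03 to 26.8 CPM) have groups that do not overlap. Over all tested genes, 9.07% lie lower and 12.1% higher in VPA without overlap.

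CACNA2D1 encodes alpha2delta-1, a gabapentinoid target. It had 268, 266 and 280.3 CPM in VPA 391, 392 and 393, against 296, 292 and 310.4 CPM in control 401, 402 and 408. All VPA libraries were below all controls, as for 9.07% of tested genes. The means were 271 ± 7.85 CPM in VPA and 299 ± 9.72 CPM in controls, an estimated change of -10.2% with an interval of -16.4% to -3.50%. The unadjusted p was 0.0073, rank 734 of the 14373 genes, and the adjusted p was 0.14 (0.092 to 0.86 over 19 alternatives). Its log2 fold change was negative in each of these alternatives, between -0.18 and -0.13, and it passed the threshold in 0 of them.

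Striatal marker sums in VPA 391 and VPA 392 (160.5 and 177 CPM) were above every control (124 to 140.03 CPM). Leaving out VPA 393 therefore does not remove that difference, and the part of striatal markers in the CACNA2D1 result was not tested. The CACNA2D1 log2 fold change was -0.17 without VPA 393, the library with the highest striatal marker sum. It was -0.16 among the 4 libraries with more than 10 counts of the Y-linked gene EIF1AY (VPA 391, VPA 393, control 402 and control 408), and -0.13 with the oligodendrocyte marker score as a covariate, where its unadjusted p was 0.15. That score, the mean log2 CPM of the oligodendrocyte markers, was 9.23 to 9.36 in VPA and 8.72 to 9.16 in controls. It did not overlap between groups, so a fit with it cannot separate VPA from oligodendrocyte content. The sum of the glutamatergic neuron markers was also lower in all VPA libraries than in all controls, and their part in the CACNA2D1 result was not tested.

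CACNA2D2 encodes alpha2delta-2, the other gabapentinoid target. It had 27.6, 28.4 and 27.0 CPM in VPA 391, 392 and 393, against 26.8, 25.03 and 26.4 CPM in control 401, 402 and 408. All VPA libraries were above all controls, as for 12.1% of tested genes, but VPA 393 and control 401 were less than 1 CPM apart. The means were 27.7 ± 0.711 CPM in VPA and 26.1 ± 0.955 CPM in controls, and both SDs were below counting error. The change was 5.04% with an interval of -6.48% to 17.98% (adjusted p = 0.70). The log2 fold change was -0.017 with the oligodendrocyte marker score as a covariate, a score that did not overlap between the groups. Summed interneuron, oligodendrocyte precursor, striatal, and choroid plexus and ependymal markers were each also higher in all VPA libraries than in all controls. The glutamatergic neuron sum was lower in all VPA libraries. The part of these markers in the CACNA2D2 result was not tested.

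CACNA2D3 encodes alpha2delta-3. It had 63.2, 59.9 and 73.8 CPM in VPA 391, 392 and 393, against 63.8, 70.8 and 67.3 CPM in control 401, 402 and 408. VPA 393 was the highest library, and the other VPA libraries were the lowest, the same placing as in CACNA1C. Its log2 fold change was -0.05 ± 0.081 (adjusted p = 0.82), and -0.14 without VPA 393.

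Among the alpha2delta genes, CACNA2D1 held 71.2%, 71.3% and 70.4% of the summed FPKM in VPA 391, 392 and 393, against 73.3%, 72.3% and 73.7% in control 401, 402 and 408. CACNA2D2 held 11.4% to 12.8% in VPA and 10.4% to 11.2% in controls. Neither share overlapped between groups, while that of CACNA2D3 did (15.8% to 18.2% in VPA, 15.5% to 17.2% in controls). Shares of 1 sum are tied to each other, and no test was made of them.

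**Figure D3:**
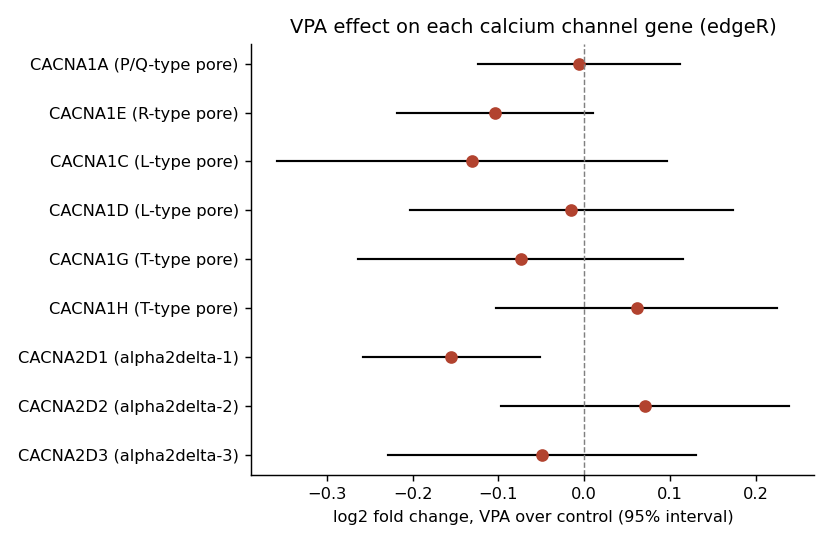
Log2 fold change, VPA over control, of the 9 genes with its 95% interval from edgeR's quasi-likelihood fit (3 libraries per group). The interval of CACNA2D1 lies below 0 before adjustment over all genes, and those of the other 8 genes include 0.

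The order of the libraries varied from gene to gene. VPA 392 was the lowest library in 4 of 9 genes and VPA 391 in 3, while control 408 was the highest in 4 and VPA 393 in 3. The median of the 9 log2 deviations from the control mean was -0.09 in VPA 391, -0.08 in VPA 392 and 0.04 in VPA 393, against -0.02, -0.02 and 0.02 in control 401, 402 and 408. VPA 393 thus lay on the other side of the controls from VPA 391 and VPA 392. Without VPA 393 the median log2 fold change of the 9 genes was -0.11, and without control 408 it was 0.0067, with 4 of 9 genes negative. Summed over the 9 genes, there were 807, 796 and 855 CPM in VPA 391, 392 and 393, against 850.1, 847 and 887 CPM in control 401, 402 and 408.

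**Figure D4:**
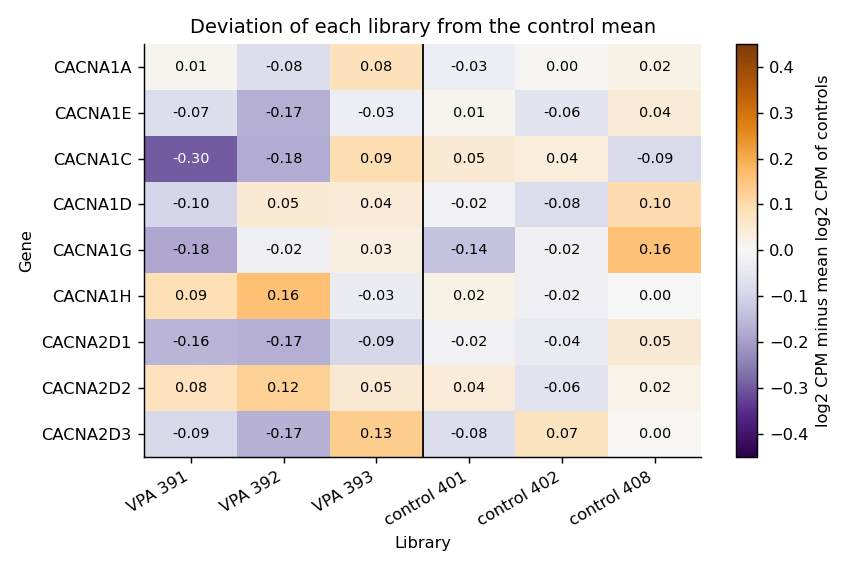
Log2 CPM of each library minus the mean log2 CPM of the controls, for the 9 genes (rows) and 6 libraries (columns, VPA left of the line, control right). CACNA2D1 is negative in all VPA libraries (-0.16, -0.17 and -0.09), while CACNA1C and CACNA2D3 are negative in VPA 391 and VPA 392 and positive in VPA 393.

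The beta subunit genes also did not pass. Of 4 tested, all had negative fold changes (median -0.09 on the log2 scale), as had 49.5% of all tested genes. CACNB1 had 108, 104 and 117 CPM in VPA 391, 392 and 393, against 121, 119.8 and 121 CPM in control 401, 402 and 408. All VPA libraries were lower (log2 fold change -0.15 ± 0.053, adjusted p = 0.20), as in 9.07% of all tested genes. CACNB4 had 28.0 ± 5.31 CPM in VPA and 32.1 ± 2.01 CPM in controls, with overlapping groups (-0.21 ± 0.12, adjusted p = 0.44). Its log2 fold change was -0.08 without VPA 392 and -0.34 without VPA 393. CACNB3, the beta gene with the highest level per length at 60.1 FPKM, had a log2 fold change of -0.0067 ± 0.052, and CACNB2 one of -0.03 ± 0.089.

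Of 8 gamma and related genes, 6 were measured, with 4 positive and 2 negative fold changes (median 0.12) and 0 past the adjusted test. The gene with the lowest p was CACNG3, which encodes an auxiliary subunit of AMPA receptors. It had 142 ± 6.14 CPM in VPA and 156 ± 7.70 CPM in controls (log2 fold change -0.14 ± 0.054, adjusted p = 0.23). CACNG6 had 11.6 ± 0.827 CPM in VPA and 9.76 ± 0.199 CPM in controls (0.23 ± 0.11, adjusted p = 0.33). All its VPA libraries were higher, as in 12.1% of all tested genes. CACNA1F, the L-type pore gene of the retina, was near 2 CPM in both groups (2.22 ± 0.316 CPM in VPA, 1.81 ± 0.127 CPM in controls, adjusted p = 0.65). CACNA1S, the L-type pore gene of skeletal muscle, and CACNA2D4 had at most 10 counts in each library and were not tested.

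Genes that work with these channels at release sites mostly had negative fold changes. Of 14, 12 had negative fold changes (median -0.15), as had 49.5% of all tested genes. Of these, 8 had an unadjusted p under 0.05 (edgeR), where 7.45% of all tested genes were under it and lower. In 7 all VPA libraries were below all controls, as in 9.07% of all tested genes. This list and those below were chosen with earlier results of these data known, so the counts only describe them. The glutamatergic neuron marker sum was also lower in all VPA libraries, and its part here was not tested. UNC13A, which encodes the vesicle priming protein Munc13-1, had 410.0, 378 and 403 CPM in VPA 391, 392 and 393, against 460.0, 445 and 478 CPM in control 401, 402 and 408 (log2 fold change -0.23 ± 0.052, adjusted p = 0.077). BSN, the active zone scaffold gene bassoon, had 446 ± 19.0 CPM in VPA and 504 ± 19.99 CPM in controls (-0.19 ± 0.053, adjusted p = 0.12). Neither passed in edgeR, and no gene of the list did.

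Calcium pumps, exchangers, stores and buffers also mostly had negative fold changes. Of 15, 13 had negative fold changes (median -0.13), 7 of these at an unadjusted p under 0.05 with 1 other gene higher at that p, and 0 passed the adjusted test. Over all tested genes 49.5% had negative fold changes, and 7.45% were lower and 8.69% higher at that p. ATP2B4, a plasma membrane calcium pump gene, had 545, 508 and 532 CPM in VPA 391, 392 and 393, against 623, 604 and 668 CPM in control 401, 402 and 408 (log2 fold change -0.27 ± 0.054, adjusted p = 0.064). All VPA libraries were lower, as in 9.07% of all tested genes. ATP2B3, another pump gene of the same family, had 118 ± 7.22 CPM in VPA and 135 ± 1.81 CPM in controls (-0.20 ± 0.053, adjusted p = 0.11).

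Among 15 calcium-activated effectors 10 had negative fold changes (median -0.10), 3 at an unadjusted p under 0.05, all lower, beside 49.5% and 7.45% of all tested genes. PPP3CB, a catalytic calcineurin gene, had 276 ± 7.21 CPM in VPA and 305 ± 11.9 CPM in controls (-0.16 ± 0.049, adjusted p = 0.15). PPP3R1, which encodes the calcium-binding calcineurin subunit, had 550.3 ± 47.7 CPM in VPA and 606 ± 10.8 CPM in controls (-0.15 ± 0.060, adjusted p = 0.25). Channel regulators were evenly split, 10 positive and 10 negative (median -0.0042). CALM2, 1 of 3 genes for calmodulin, had 1437, 1464 and 1499 CPM in VPA 391, 392 and 393, against 1629, 1689 and 1660.2 CPM in control 401, 402 and 408, with no overlap (-0.19 ± 0.046, adjusted p = 0.089). Over all tested genes, 9.07% lay lower in VPA without overlap. Reads shared between CALM2 and its sister genes cannot be separated here. THBS2, a thrombospondin gene of the family that binds alpha2delta-1 in rodents, had 22.0 ± 0.474 CPM in VPA and 18.6 ± 2.70 CPM in controls (0.23 ± 0.11, adjusted p = 0.33).

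**Figure D5:**
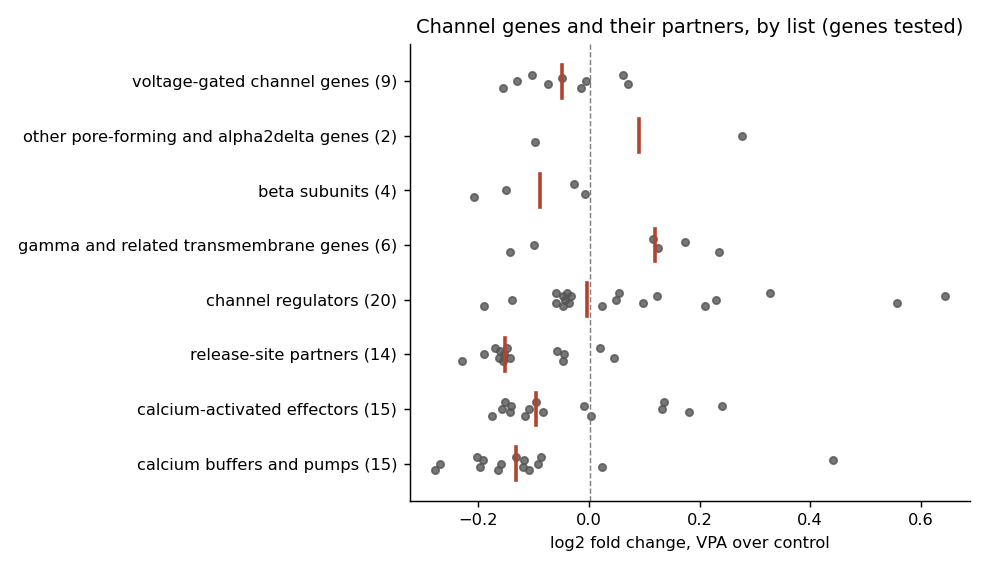
Log2 fold changes, VPA over control, of the 9 calcium channel genes and of 7 lists of related genes, with 1 point per tested gene, the list's median as a red bar and the median of all genes tested as a dashed line. The medians of the release-site list (-0.15) and of the pump and buffer list (-0.13) lie farther below 0 than that of the channel genes (-0.05). The lists were chosen with earlier results of these data known.

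DESeq2 called CALM2, UNC13A, BSN and ATP2B4 lower in VPA, with adjusted p of 0.0027, 0.0044, 0.029 and 0.00051. It called 1.55% of the genes it adjusted as lower. For CALM2, UNC13A and BSN the call was made by DESeq2 alone among 19 alternatives. ATP2B4 was also called by edgeR with no filter on low counts (adjusted p = 0.041). Over their alternatives adjusted p reached 0.84 for CALM2, 0.72 for UNC13A, 0.88 for BSN and 0.67 for ATP2B4, each with the oligodendrocyte marker score as a covariate. As that score did not overlap between groups, the fit cannot separate it from VPA.

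The genes whose log2 CPM followed CACNA2D1 most closely over the 6 libraries were OLA1, PALM2 and CAB39, with Pearson correlations of 0.998, 0.995 and 0.991. They were the 3 highest of 10221 genes with a mean of at least 10 CPM, 370 of which had a correlation over 0.9, and all points share their library totals. Their log2 fold changes were -0.24 for OLA1, -0.32 for PALM2 and -0.10 for CAB39, none past the adjusted test.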

How the data were processed

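For every library the authors deposited a table of raw counts and a table of FPKM values, both by gene, per the file headers. Total RNA was extracted with TRIzol, per the labels' protocols. The sources used here do not name the aligner, counter, build, annotation or strandedness, and no coordinates are printed. Deposited FPKM equalled count over file total and a whole-number gene length (relative tolerance 0.001). The 24 date-like gene names stayed in library sizes. No library pair agreed within sampling noise (chi-square per degree of freedom 5.92 to 13.3 over 15 pairs).

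CPM used file totals. Tests used R 4.3.3 and edgeR 4.0.16 (filterByExpr, TMM, glmQLFit, glmQLFTest, no covariate, 4 residual degrees of freedom), with Benjamini-Hochberg adjustment over 14373 genes at 0.05, and were tested on simulated data. In simulated counts edgeR recovered 20% of genes changed 1.25-fold, 64% at 1.5-fold and 92% at 2-fold. Of its calls there, 7.53% were false. Genes past 0.05 are termed called. SE came from the F statistic. Counting error is 100% over the square root of the mean count. Alternatives were other scaling, filters, DESeq2 1.42.0, limma 3.58.1 (voom, and log2(FPKM + 1) with a mean FPKM of at least 0.5), covariates and left-out libraries.

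Members and lists were chosen with earlier results of these data known. Named are all members and, per related list, called genes and the 2 with the lowest p. From each cell type list the 2 most abundant are named, except 1 gene that is not reported here. CAMK2A and PVALB stand in 2 lists each.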

Additional observations from a re-analysis of the deposited data

How the results depend on the processing

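No member was called under any of 19 alternatives. Called genes over the whole table numbered 52, against 141 with no filter on low counts, 444 with DESeq2, 30 with limma-voom, 2 with limma on log2(FPKM + 1), 2 with a pseudocount of 0.1 and 1 without the FPKM filter. The edgeR count was 0 with the oligodendrocyte score as a covariate (946 genes at an unadjusted p under 0.05) and 0 among the 4 libraries with more than 10 EIF1AY counts (1919 genes), an alternative chosen after seeing the data. The oligodendrocyte score did not overlap between groups, so fits with it cannot separate the score from VPA. With 1 library left out it ran from 0 (without VPA 391, 1897 genes, and without VPA 392, 1719 genes) to 66 (without control 401), with 1 without VPA 393, 5 without control 402 and 2 without control 408. The members' median log2 fold change ran from -0.11 to 0.0067 with 1 library left out.

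CACNA2D1, CACNA1E and CACNA1C kept negative fold changes throughout. CACNA1A, near 0, turned to 0.0068 with library size only, 0.0051 on log2(FPKM + 0.1), 0.0048 on log2(FPKM + 1) with and without the filter, 0.012 in the 4 EIF1AY libraries, 0.033 without VPA 392 and 0.0067 without control 408. CACNA1D turned to 0.018 without VPA 391 and 0.037 without control 408, CACNA1G to 0.0094 without control 408, and CACNA2D3 to 0.011 without VPA 392. With the oligodendrocyte score as a covariate, CACNA1A stood at 0.063, CACNA1G at 0.088, CACNA2D3 at 0.15, CACNA1H at -0.017, CACNA2D2 at -0.017 and THBS2 at -0.038. The cause was not tested.

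Leave-one-out log2 fold changes ran from -0.040 to 0.033 for CACNA1A, -0.060 to 0.037 for CACNA1D, -0.15 to 0.0094 for CACNA1G, -0.14 to 0.011 for CACNA2D3, -0.24 (without VPA 393) to -0.06 (without VPA 391) for CACNA1C and -0.14 to -0.065 (without VPA 392) for CACNA1E. They ran from 0.017 (without VPA 392) to 0.12 (without VPA 393) for CACNA1H and from 0.036 (without control 402) to 0.094 for CACNA2D2. Of the related genes, CACNB4 ran from -0.34 (without VPA 393) to -0.077 (without VPA 392), CACNA1I from -0.17 (without control 408) to -0.03 (without VPA 393), CACNA1F from 0.14 (without VPA 391) to 0.35 and THBS2 from 0.15 (without control 408) to 0.34. No paired analysis was possible because the animal numbers are not shared between groups. Counting errors were largest for CACNA1C, CACNA1D and CACNA2D2, at 4.61% to 4.91%. CACNA1C varied by more than that among VPA animals, with a coefficient of variation of 14.2%. The 3 animals per group limit all genes.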
